A study of Drosophila melanogaster with 42 samples.

Results

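Among X-linked MSL3 peaks the strongest in M1[wt]_M2 females lay between the start sites of *Rala* and *Tlk*, and the strongest in M1[wt] males lay inside *CG2278*. All records of 6 deposited peak lists within 20 kb of these summits, at chrX 3719829 and chrX 8168014 of dm6, are described here. There were 73 such records of 39130 in all, 25 around the *Tlk* site and 48 around the *CG2278* site. The 2 sites were picked by their rank in the MSL3 lists, so their MSL3 ranks and heights are given as a description and not as a result.

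The lists came from ChIP-seq of MSL1, MSL2 and MSL3 in whole adult *Drosophila melanogaster*, 3 days old according to the labels. M1[wt]_M2 females were msl-1-; Ubi:msl-2WT-FLAG/Ubi:msl-1WT and M1[wt] males were msl-1-; Ubi:msl-1WT/Ubi:msl-1WT. Both groups carried the null combination msl-1γ269/msl-1L60, so their MSL1 came only from transgenes driven in all tissues by the *Ubi-p63E* promoter, and the females made MSL2, which wild-type females lack, from such a transgene. For MSL3 in males the genotype label named the line with MSL2 while the titles named M1[wt], which was followed. Each list drew on 2 replicates, except that of MSL1 in males, which had 1 library. A list gives 1 value per peak, so no value below has a replicate error and no test was made. In the female lists the positions and −log10 p are those of 1 of the 2 IDR inputs. This was not so in the male MSL2 and MSL3 lists, so −log10 p is not on a like scale in the sexes. Folds and −log10 p are relative to IgG, and the labels give the IgG libraries as 2 from wild-type females and 1 from wild-type males, not from the transgenic lines. Whole flies mix all cell types, and a lower peak cannot be told apart from binding in fewer cells.

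The MSL complex acetylates histone H4 over active genes of the male X chromosome and raises their transcription. MSL1 is the scaffold, MSL2 is the male-specific subunit that recognises DNA at high-affinity sites (HAS), and MSL3 has a chromodomain that binds nucleosomes methylated at lysine 36 of histone H3 in the bodies of active genes. The complex is known to enter the X chromosome at HAS, many of which hold GA-rich repeats, and to spread from there over neighbouring transcribed genes. *Tlk* encodes Tousled-like kinase, a serine/threonine kinase that acts in chromatin assembly and cell division. *Rala* encodes a small GTPase related to Ras. No role is given here for *CG2278*.

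The *Tlk* summit lay in the 371 bases between 2 divergent start sites. The start site of *Rala* (FBgn0015286, minus strand) at 3719635 was 194 bp away, and the first start site of *Tlk* (FBgn0283657, plus strand, 3720007-3789770) was 178 bp away on the other side. Of the 14 annotated *Tlk* transcripts 6 began there. The stretch shown is chrX:3719679-3719978 of dm6, plus strand, with the summit of the female MSL3 peak at base 151. It lies wholly between the start sites, and the capitals mark the 5 copies of ACTCG, counting both strands, in its imperfect repeats.
Tlk-Rala: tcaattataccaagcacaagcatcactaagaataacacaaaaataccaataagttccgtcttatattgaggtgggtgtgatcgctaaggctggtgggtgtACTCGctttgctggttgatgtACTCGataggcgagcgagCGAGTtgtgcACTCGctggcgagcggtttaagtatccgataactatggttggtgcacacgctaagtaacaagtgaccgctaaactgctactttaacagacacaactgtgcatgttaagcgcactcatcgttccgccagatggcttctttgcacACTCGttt

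The motif was picked after the sequence was read. As many copies in 300 bases were found around 4 of 3907 X-linked start sites (0.102%). Around X-linked MSL3 summits this was so for 1 of 1100 in females (0.0909%), the *Tlk* summit itself, and for 2 of 1829 in males (0.109%). Whether the male *Tlk* summit, 6 bp from the female one, is among these 2 is not given here. The last copy lies near the end of the stretch, so the count depends on where the window is placed.

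The *CG2278* summit lay inside the gene (FBgn0030017, minus strand, 8165833-8170266), 50.8% of the way from the 5′ to the 3′ end, 2252 bp from its first base. At the male and the female MSL3 summits the sequence was coding in 3 of 3 transcripts. The first stretch shown is the coding sequence chrX:8167957-8168156 of dm6, plus strand, opposite to the gene, with 5 bases in capitals around each of the MSL3 summits (the female summit first). The second is chrX:8167738-8167767, plus strand, just beside the MSL2 summits, in the 3′ untranslated region of all transcripts. Its first base is the position of a listed HAS, and the capitals mark a run of 13 pyrimidines, which reads as G and A on the other strand.
CG2278 coding: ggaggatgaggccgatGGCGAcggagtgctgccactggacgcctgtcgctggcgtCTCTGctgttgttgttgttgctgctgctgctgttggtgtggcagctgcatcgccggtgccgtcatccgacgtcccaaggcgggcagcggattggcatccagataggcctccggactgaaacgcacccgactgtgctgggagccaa
CG2278 HAS: tatggctaaCCCTCTCTTTTTCgcttgcct

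The GC content was 46.3% over the *Tlk* stretch and 64.0% over the coding stretch of *CG2278*. No run of 8 alternating G and A (GAGAGAGA or AGAGAGAG, both strands) lay within 100 bp of any of the 11 summits at the 2 sites. Such a run was present at 3.18% of X-linked MSL3 summits in females and at 6.89% in males. A run of at least 13 pyrimidines or purines within 50 bp of the summit, a measure chosen after the sequence was read, was present at 16.5% of X-linked MSL2 peaks in males and at 11.4% in females. At X-linked MSL3 peaks the share was 10.6% in males and 5.00% in females.

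All 6 lists had a peak at the *Tlk* site. In females MSL3 was enriched 41.2-fold over IgG (−log10 p 1594), MSL2 14.0-fold (−log10 p 325) and MSL1 8.23-fold (−log10 p 142). In males MSL3 was enriched 39.6-fold (−log10 p 1846), MSL1 8.44-fold (−log10 p 131) and MSL2 5.17-fold (−log10 p 84.5). MSL3 thus had the highest fold in either sex, although folds of different antibodies are not on a common scale.

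At the *CG2278* site 5 of the 6 lists had a peak, and that of MSL1 in females had none. In males MSL2 was enriched 58.4-fold (−log10 p 3935), MSL3 47.2-fold (−log10 p 3591) and MSL1 36.9-fold (−log10 p 1504). In females MSL2 was enriched 15.0-fold (−log10 p 525) and MSL3 4.65-fold (−log10 p 129). The nearest MSL1 peak in females lay 25088 bp away, inside *sdt*, and was enriched 2.86-fold.

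Among all X-linked MSL3 peaks of females, 45.9% had an MSL1 peak and 67.8% an MSL2 peak within 500 bp. In males the shares were 93.0% for MSL1 and 80.7% for MSL2. The *Tlk* site was thus among the peaks with all 3 proteins in both sexes, and the *CG2278* site lacked MSL1 in females. Of the 1577 X-linked MSL2 peaks in females, 946 had no MSL1 peak within 500 bp, and the *CG2278* peak had the highest −log10 p of these 946. Only 6 of the 100 strongest X-linked MSL2 peaks in females lacked MSL1 in this way. The MSL1 list of females was the shortest, with 905 peaks, 522 of them on the X chromosome, and that of males had 4317 there. The shares above depend on list length. With each list cut to its 905 strongest peaks, the share of X-linked MSL3 peaks with MSL1 was 65.0% in females and 64.3% in males. The share with MSL2 was then 53.3% in females and 50.6% in males.

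**Figure D1:**
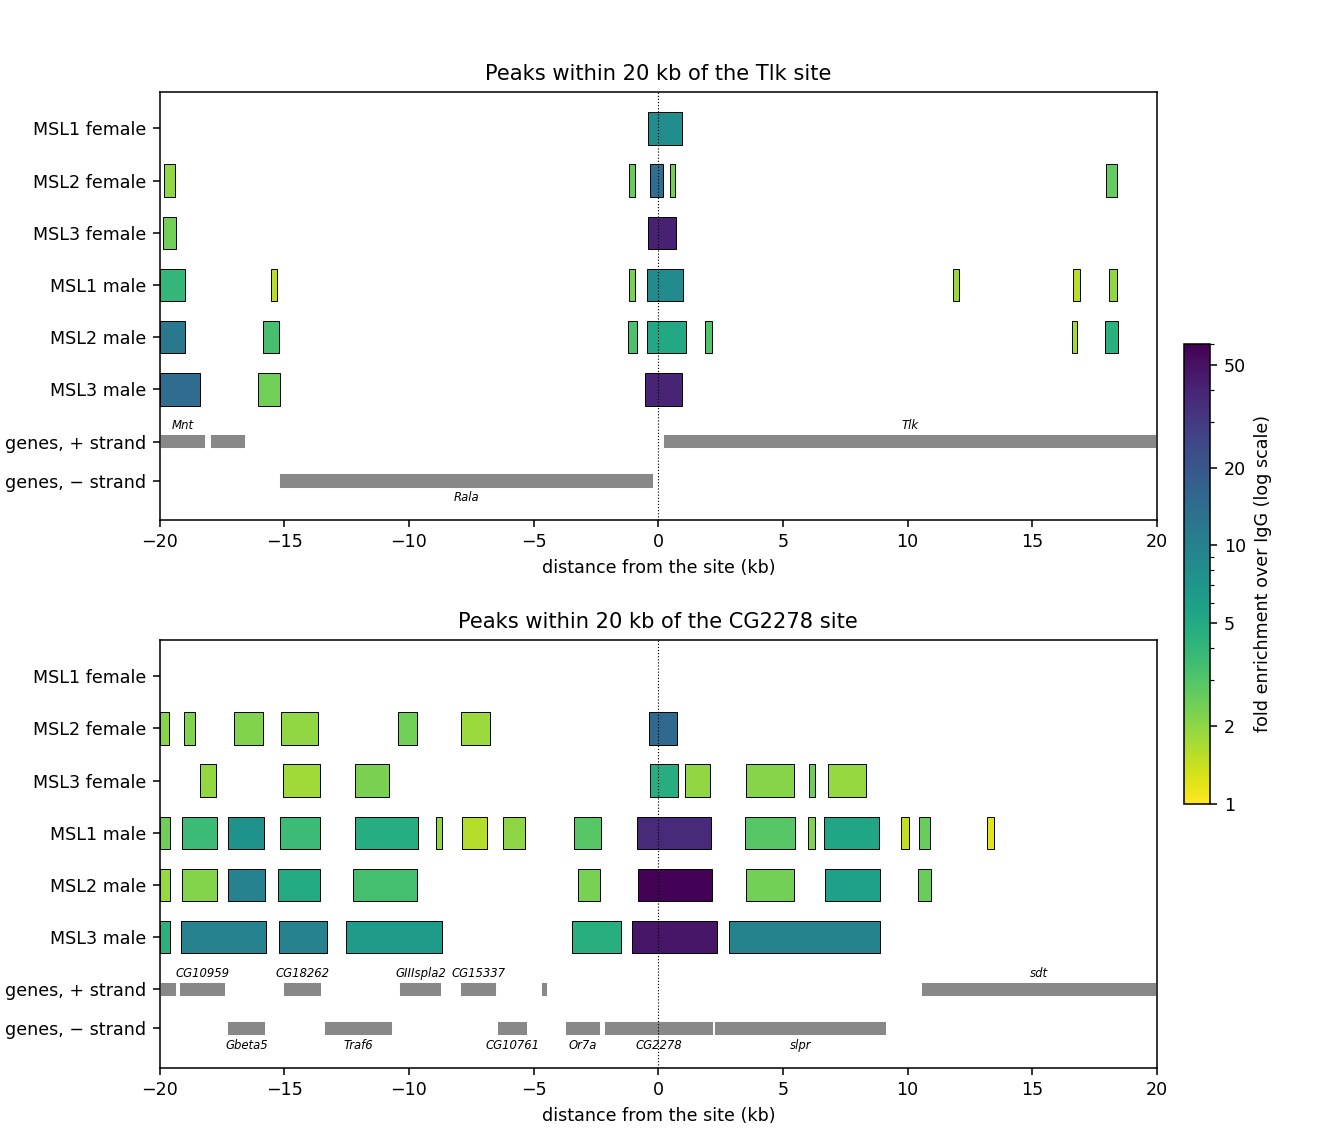
Peaks of the 6 lists within 20 kb of the *Tlk* site (top) and the *CG2278* site (bottom), by distance from the site in kb, coloured by fold enrichment over IgG on a log scale, with genes as grey bars by strand. Peaks cut by the window are drawn to its edge. The *Tlk* site is a column of aligned peaks with few others nearby. The *CG2278* site sits in a chain of peaks in the male lists and in that of MSL3 in females. In females MSL2 has no other peak within 5 kb of the *CG2278* site, and MSL1 has no peak in the window.

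Of the 5 lists with a peak at both sites, *CG2278* ranked above *Tlk* in 4, among them the MSL3 list of males by which it was chosen. *Tlk* ranked above *CG2278* in the MSL3 list of females, by which it was chosen. The *Tlk* peak ranked 1 of 1100 X-linked MSL3 peaks in females by −log10 p, 58 of 1577 for MSL2 and 84 of 522 for MSL1. In males it ranked 25 of 1829 for MSL3, 208 of 4317 for MSL1 and 574 of 2351 for MSL2. It thus stood in the upper 1.37% of the male X-linked MSL3 list but only in the upper 24.4% of the male X-linked MSL2 list.

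The *CG2278* peak ranked 1 of 1829 X-linked MSL3 peaks in males, 16 of 4317 for MSL1 and 23 of 2351 for MSL2. In females it ranked 34 of 1100 for MSL3 and 35 of 1577 for MSL2. All of its ranks were therefore in the upper 3.09% of the X-linked part of a list. In the male MSL2 list the sites were 551 places apart, with *CG2278* above *Tlk*, and in the female MSL2 list they were 23 places apart in the same order.

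By fold enrichment the *Tlk* peak ranked 11 and the *CG2278* peak 3 of the male X-linked MSL3 peaks, and in females *Tlk* stayed at 1 while *CG2278* ranked 76. When each list was cut to its 905 strongest peaks, the male MSL2 peak at *Tlk* (1354 of 6110 over all chromosomes) was no longer among them. The other peaks at the sites were kept.

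**Figure D2:**
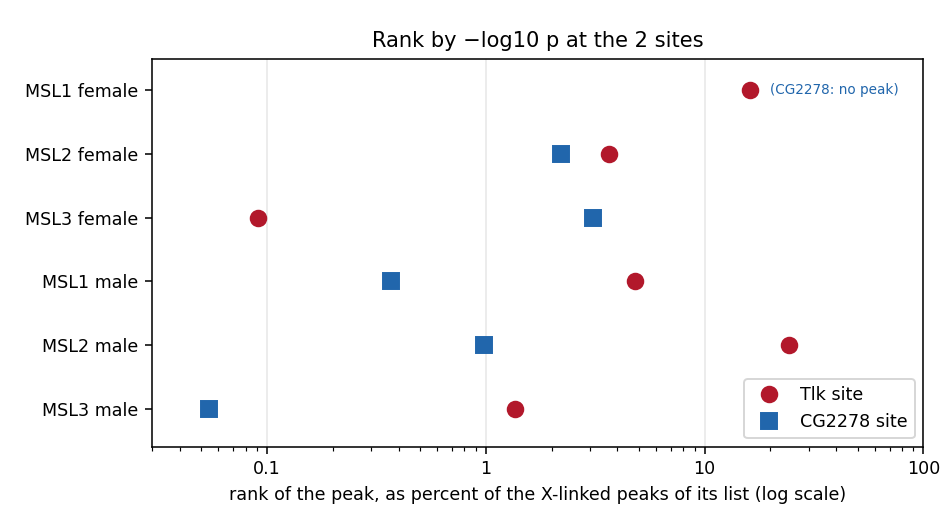
Rank of the strongest peak at the *Tlk* site (circles) and the *CG2278* site (squares) in each list, by −log10 p, as a percent of the X-linked peaks of that list on a log axis, so that points on the left are the strongest. The *Tlk* point lies at 24.4% for MSL2 in males and at 1.37% for MSL3 in males, and *CG2278* has no point for MSL1 in females.

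Just outside the choice, the X-linked MSL3 peak that ranked second in females lay in *Hr4* (−log10 p 963, against 1594 at *Tlk*), and its fold was 26.5 against 41.2. In males the peak that ranked second had its summit in *sta* (−log10 p 3370, against 3591 at *CG2278*), with a fold of 43.3 against 47.2. Of the 20 strongest X-linked MSL3 peaks of females, 16 had the summit within 500 bp of a start site, as had 21.5% of all 1100. Of the 20 strongest of males, 2 did, against 22.2% of all 1829. These 20 peaks were within 500 bp of a listed HAS in 5 cases in females and 19 in males, against 29.5% and 17.5% of all X-linked MSL3 peaks. This distance was taken from the edges of a peak, so wide peaks reach a HAS more readily. The median width of the 20 peaks was 814.5 bp in females and 6888.5 bp in males. The *Tlk* and the *CG2278* peak are counted in these sets.

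No listed HAS lay within 500 bp of the *Tlk* summit. The nearest, at 3702483, was 17.3 kb away and had no peak of any list within 500 bp. Another, at 3699656 in *Mnt*, was 20.2 kb away and had peaks of all lists but MSL1 in females. At *CG2278* a listed HAS at 8167738 was 276 bp from the male MSL3 summit, 34 bp from the female MSL2 summit, 42 bp from the male MSL2 summit and 80 bp from the male MSL1 summit.

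The summits of different proteins were closer together at *Tlk* than at *CG2278*. At *Tlk* the 6 summits lay within 75 bp, from 3719754 to 3719829. Those of MSL3 were 6 bp apart in the sexes, and those of MSL1 and MSL2 lay 43 to 75 bp to the side of *Rala*. All were intergenic and 119 to 184 bp from the nearest start site.

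At *CG2278* the 5 summits spanned 242 bp. The MSL2 summits of the sexes were 8 bp apart, at 242 and 234 bp from the male MSL3 summit towards the 3′ end of the gene, and the male MSL1 summit was at 196 bp in the same direction. The female MSL3 summit was at 39 bp. The MSL1 and MSL2 summits thus sat beside the HAS, and the MSL3 summits about 200 bp further into the coding sequence. The summits at *CG2278* were 2046 to 2110 bp from the nearest start site, and those of MSL2 fell in the 3′ untranslated region in 3 of 3 transcripts.

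Among X-linked MSL3 peaks with an MSL2 peak within 500 bp, the median distance between the summits of the 2 proteins was 346 bp in females (746 peaks) and 454 bp in males (1476 peaks). At *Tlk* it was 44 bp in females and 37 bp in males, and at *CG2278* 203 bp and 234 bp. The lower quartiles over all such peaks were 38.25 bp in females and 34.75 bp in males, close to the *Tlk* values. Summits of MSL2 and MSL3 lay within 100 bp of each other in 38.3% of these peaks in females and 36.1% in males. For MSL1 and MSL3 the shares were 31.5% and 49.3%. Alignment of this kind was thus common on the X chromosome and not particular to *Tlk*. Each list but that of MSL1 in males also holds the 2 inputs that were compared by IDR, which were replicates or pseudoreplicates. Summits of the 2 inputs differed by 4 to 66 bp at *Tlk* and by 1 to 18 bp at *CG2278*. The offset between MSL2 and MSL3 was larger than this spread at *CG2278*, and at *Tlk* it was within it.

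Relative to their size, the −log10 p of the inputs differed most for MSL1 in females. At *Tlk* they were 1594 and 1694 for MSL3 in females, 926 and 939 for MSL3 in males, 325 and 289 for MSL2 in females, 75.6 and 64.5 for MSL2 in males, and 142 and 97.2 for MSL1 in females. At *CG2278* they were 1827 and 1779 for MSL3 in males, 3340 and 3796 for MSL2 in males, 525 and 583 for MSL2 in females, and 129 and 104 for MSL3 in females. In the 4 lists with inputs and a peak at both sites, the site that was stronger in the first input was stronger in the second.

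**Figure D3:**
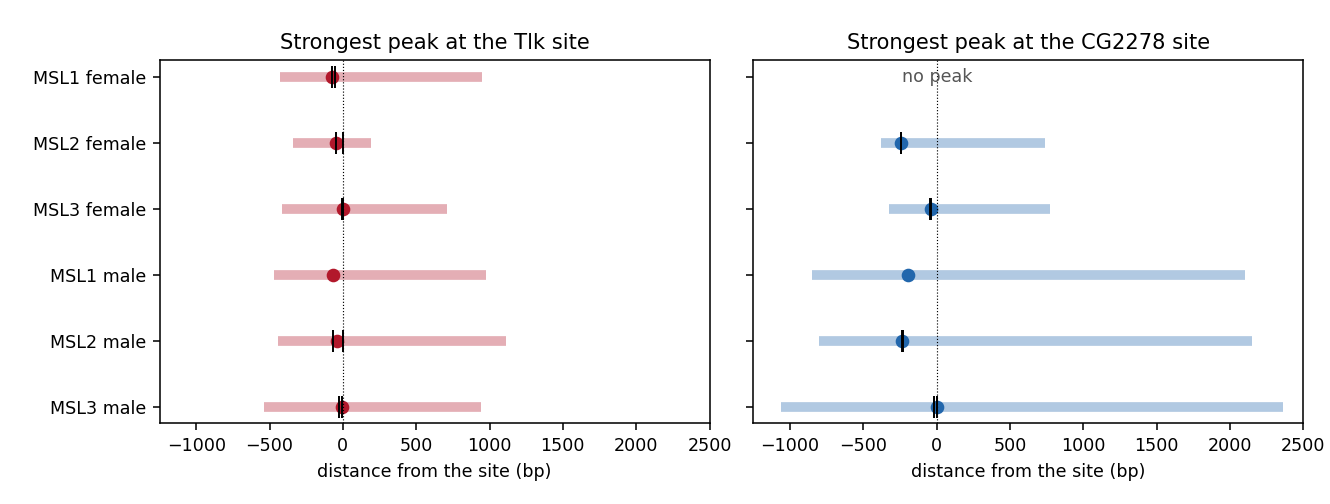
Extent (bar) and summit (circle) of the strongest peak of each list at the *Tlk* site (left) and the *CG2278* site (right), by distance from the site in bp. Vertical ticks are the summits of the 2 IDR inputs. The summits span 75 bp at *Tlk* and 242 bp at *CG2278*, where MSL1 and MSL2 are to the left of MSL3.

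The *Tlk* peaks had almost the same bounds in most lists. Their widths were 1376 bp (MSL1, females), 1443 bp (MSL1, males), 1556 bp (MSL2, males), 1128 bp (MSL3, females) and 1479 bp (MSL3, males), and the MSL2 peak of females was narrower, at 528 bp. At *CG2278* the widths were 1121 bp (MSL2) and 1101 bp (MSL3) in females, and 2955 bp (MSL1), 2953 bp (MSL2) and 3423 bp (MSL3) in males. The sexes thus had MSL3 peaks of 1128 and 1479 bp at *Tlk* but of 1101 and 3423 bp at *CG2278*. The female and male lists were built differently, which can change widths.

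All male peaks at *CG2278* reached further towards the 5′ end of the gene (2104 to 2359 bp) than towards the 3′ end (803 to 1063 bp). In males 972 other X-linked MSL3 peaks were no wider than that at *Tlk*, and 1 of them had as high a fold. Their median fold was 3.61.

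**Figure D4:**
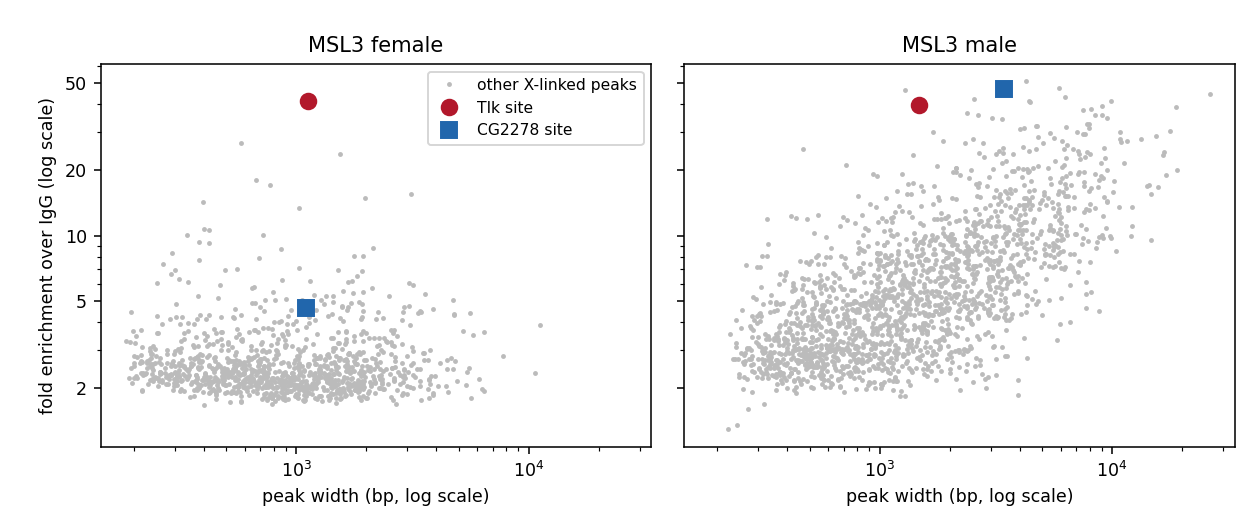
Fold enrichment over IgG against peak width, both on log axes, for the X-linked MSL3 peaks of females (left, 1100 peaks) and males (right, 1829 peaks), with the *Tlk* peak as a circle and the *CG2278* peak as a square. The *Tlk* peak is at 41.2-fold and 1128 bp in females and at 39.6-fold and 1479 bp in males, where most peaks of that width are much lower.

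Peaks covered less of the neighbourhood of the *Tlk* site than of that of the *CG2278* site in every list but that of MSL1 in females. In males MSL3 peaks covered 9.99% of the 40 kb around *Tlk* and 52.5% of the 40 kb around *CG2278*. The median was 38.7% for windows on 1807 other X-linked MSL3 summits (interquartile range 23.5% to 53.7%), and 17.1% of the whole X chromosome was in MSL3 peaks. In females MSL3 covered 4.18% around *Tlk* and 23.3% around *CG2278*, with a median of 16.3% over 1081 other summits.

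Male MSL1 peaks covered 9.58% and 47.7%, and male MSL2 peaks 11.6% and 40.3%, at *Tlk* and *CG2278* in that order. The medians of other windows were 31.2% and 26.9%. Female MSL2 peaks covered 4.67% and 16.3%, with a median of 13.5%. Only 7.58% of the other windows had less male MSL3 coverage than *Tlk*, whereas 73.3% had less than *CG2278*.

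Between 1 and 10 kb from the *Tlk* summit there was no base in an MSL3 peak in either sex. Around *CG2278* male MSL3 peaks held 100% of the bases within 1 kb, 78.0% of those at 1 to 2 kb, 66.4% at 2 to 5 kb, 51.9% at 5 to 10 kb and 41.4% at 10 to 20 kb. At the same distances the mean over the other summits was 66.1%, 51.2%, 46.0%, 39.6% and 33.1%. Joined over gaps of up to 500 bp, the male MSL3 peak at *CG2278* became a run of 12343 bp made of 3 peaks, and that at *Tlk* stayed at 1479 bp. The 2 gaps inside this run were each under 500 bp, and without joining the *CG2278* peak was 3423 bp.

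**Figure D5:**
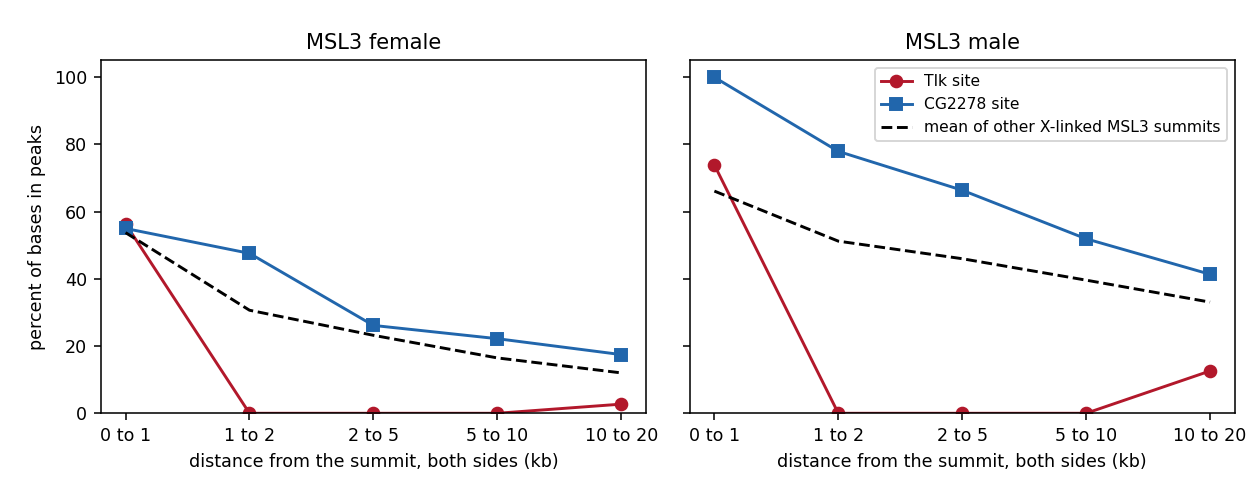
Percent of bases in MSL3 peaks by distance from the summit, both sides together, for females (left) and males (right). Circles are the *Tlk* site, squares the *CG2278* site and the dashed line the mean of the other X-linked MSL3 summits. At 1 to 10 kb from *Tlk* the value is 0 in both sexes, and male coverage around *CG2278* falls from 100% to 41.4%.

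Outside *Mnt*, the other records around *Tlk* had lower folds than the site peak of their list. In the male MSL2 list the gap was small, with a record inside *Tlk* at 4.46-fold (rank 685) against 5.17-fold at the site. Male MSL2 records of 3.10 to 4.46-fold outside *Mnt* exceeded the median of 2.75-fold of that list on the X chromosome. Another, of 1.78-fold, was below it. *Mnt* encodes a transcription factor that pairs with Max. At its 3′ end, near the HAS described above, males had an MSL3 peak of 3316 bp (14.4-fold), an MSL2 peak of 1700 bp (11.7-fold) and an MSL1 peak of 2731 bp (4.00-fold), and females had MSL3 and MSL2 peaks of 2.41-fold and 1.97-fold. In the male MSL2 list this peak (rank 251) was stronger than that at *Tlk* (rank 574), while in the MSL1 and MSL3 lists of males *Tlk* was the stronger. MSL1 and MSL2 also had small peaks about 1 kb from the summit inside *Rala*, at 2.29-fold (MSL1, males), 3.26-fold (MSL2, males) and 2.58-fold (MSL2, females), with no MSL3 peak. At 15.3 to 15.5 kb, beyond the 3′ end of *Rala*, males had peaks of 3.37-fold (MSL2), 2.42-fold (MSL3) and 1.56-fold (MSL1).

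Inside the first 20 kb of *Tlk* no MSL3 peak other than that at the site was found. MSL2 peaks at 18.1 to 18.2 kb were enriched 4.46-fold in males and 2.68-fold in females, and the MSL1 peak of males there 1.99-fold. The remaining records in the gene were MSL2 peaks of males at 2.00 kb (3.10-fold) and 16.7 kb (1.78-fold), MSL1 peaks of males at 11968 bp (1.87-fold) and 16.7 kb (1.56-fold), and an MSL2 peak of females at 0.599 kb (2.35-fold). The best rank on the X chromosome among these remaining records was 1067 of 2351, for the MSL2 peak of males at 2.00 kb. The MSL2 peaks at 18.1 to 18.2 kb ranked 685 in males and 689 of 1577 in females. *Tlk* is 69.8 kb long, and further along it lay 10 male MSL3 peaks (up to 18.7-fold), 11 male MSL2 peaks (up to 17.2-fold) and 4 female MSL3 peaks (up to 4.22-fold). The nearest summit of these in the male MSL3 list was 21.2 kb from the site. Cut into 3 equal parts from the 5′ end, *Tlk* was 9.56%, 5.73% and 36.7% in male MSL3 peaks. *Rala*, 15.0 kb long, was 2.61% covered in males.

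Just inside the 20 kb limit of the *Tlk* window was an MSL2 peak of females at 19371 bp (1.97-fold), and just outside it another of the same list at 20044 bp (2.78-fold). For *CG2278* these were an MSL2 peak of females at 19608 bp (2.08-fold) and an MSL3 peak of males at 20466 bp (9.57-fold). The limit thus cut through the chain of peaks at *CG2278*.

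Around *CG2278* 12 protein-coding genes touched the window, and 9 of them had at least 50% of their length in male MSL3 peaks, as had 45.9% of the 2196 protein-coding genes of the X chromosome. Around *Tlk* none of 3 did. The most covered were *Gbeta5*, a G protein subunit, and *CG18262* at 100% each, *GIIIspla2*, a secreted phospholipase, at 99.1%, and *CG10959* at 94.8%. Male MSL2 peaks reached this share in 8 of the 12 genes and male MSL1 peaks in 11. In females MSL2 peaks did so in 4 genes, MSL3 peaks in 2 and MSL1 peaks in none. The share over all genes of the X chromosome was computed only for male MSL3, so these other counts have no background. The lists also cover unlike parts of the X chromosome. Male MSL1 peaks held 15.6% of it and male MSL2 peaks 12.4%. Female MSL3 peaks held 5.59%, female MSL2 peaks 5.01% and female MSL1 peaks 3.27%.

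*CG2278* itself was 90.1% in MSL3 peaks, 66.6% in MSL2 peaks and 66.6% in MSL1 peaks in males, and 48.1% in MSL3 peaks and 25.3% in MSL2 peaks in females. In 3 equal parts from its 5′ end, it was 100%, 100% and 70.2% in male MSL3 peaks, and 93.0%, 100% and 6.77% in male MSL2 peaks. The 3′ part was thus mostly in MSL3 peaks and mostly outside MSL2 peaks. Upstream on the same strand lies *slpr*, a kinase of the JNK pathway whose 3′ end overlaps the 5′ end of *CG2278*, so their shared bases count for both. It was 88.8% in male MSL3 peaks and 59.3% in male MSL2 peaks. Downstream lies *Or7a*, an odorant receptor gene, which was 80.6% in male MSL3 peaks and 62.4% in male MSL2 peaks. *sdt*, a scaffold gene of epithelial polarity of 61.9 kb, was 11.6% in male MSL3 peaks.

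The other records around *CG2278* were lower than the strongest peak at the site in each of the 5 lists with records there. Male MSL3 had 6 other records at 4.41 to 10.0-fold, male MSL2 had 9 at 1.88 to 9.83-fold and male MSL1 had 15 at 1.20 to 7.52-fold. Female MSL3 had 7 at 1.79 to 2.53-fold and female MSL2 6 at 1.85 to 2.42-fold. Their best rank on the X chromosome was 219, for MSL1 in males.

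The peaks called in females differed by side, through weak records. MSL2 peaks of females covered 29.0% of the 20 kb on the *Or7a* side and 3.69% on the *slpr* side, where they had no peak beyond that at the site. MSL3 peaks of females covered 19.1% on the *Or7a* side and 27.6% on the *slpr* side. Apart from the site peaks, the MSL2 records were 1.85 to 2.42-fold (ranks 507 to 1550 of 1577 on the X chromosome). The MSL3 records were 1.79 to 2.53-fold (ranks 503 to 1044 of 1100). With lists of equal length, female MSL3 coverage of the 40 kb fell from 23.3% to 6.16%. The contrast of sides thus rests on peaks that a stricter cutoff can remove. In *slpr* females had 53.3% of the gene in MSL3 peaks and none in MSL2 peaks, whereas males had both. *CG15337* was the opposite case, with 76.5% in MSL2 peaks of females and 67.4% in MSL1 peaks of males, and no MSL2 or MSL3 peak in males. Its MSL2 record, at 1.85-fold, was near the weak end of its list (rank 1550 of 1577 on the X chromosome). Its MSL1 record, at 1.58-fold (rank 3064 of 4317), was below the median of 2.08-fold of that list on the X chromosome. The neighbouring *CG10761* was 72.2% in MSL1 peaks of males, through a record of 2.02-fold (rank 2233), and in no other.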

How the data were processed

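Formaldehyde cross-linked chromatin from whole adult flies was sheared and precipitated with rabbit antibodies. Per the study's methods and processing notes, cutadapt was used for trimming, Bowtie 2 for mapping to dm6 and Picard for duplicates, after which blacklisted regions were dropped and MACS2 compared each precipitate with an IgG control. In 5 lists IDR was run on 2 inputs. The deposited lists give for each peak a score, a fold enrichment over IgG (a ratio), a −log10 p and a summit, and −log10 q values that were not used. In the 3 female lists positions and −log10 p equal those of IDR input 1, which was not so in the male MSL2 and MSL3 lists, so a comparison of widths or ranks between lists also compares how the lists were built. Read depth is unknown, as the lists hold no read counts.

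The 11 libraries behind the lists were grouped by their labels. IgG entered only through the authors' peak calls. The labels list 3 IgG libraries, all from wild-type flies (2 female, 1 male), and which of them served each list is not given in the sources used here, except that peak names of the male MSL1 list carry a male rabbit control. The rest of the 42 libraries described were not used here. The summits were taken as reference points, and peaks within 500 bp were counted as shared. Genes and start sites came from the Ensembl annotation and sequence from RefSeq release 6, in which *Tlk* and *CG2278* had the same coordinates. The list of 301 HAS of the study gave distances only. Named genes were *Tlk*, *CG2278*, their neighbours, genes with the strongest peak of a list, and up to 4 of those with at least 50% in male MSL3 peaks. The members and lists were chosen with earlier results of these data known. Other ranks, gaps, windows, list lengths, promoter sizes and motif lengths were tried. Python 3.11.15, numpy 2.4.6, pandas 2.3.3 and matplotlib 3.10.9 were used, and the interval functions were tested on simulated data.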

Additional observations from a re-analysis of the deposited data

How the results depend on the processing

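Of 66 values of the 2 sites recomputed under other settings, 54 stayed within 1.5 times the reported value. The 66 include yes or no outcomes and ranks after joining overlapping peaks, none of which changed. The count therefore says little about how stable the other values are. With a window of 10 kb the records fell from 25 to 11 at *Tlk* and from 48 to 27 at *CG2278*, and with lists of equal length (905 peaks) to 9 and 16. Ranked by fold enrichment, *Tlk* moved from 25 to 11 for MSL3 in males, and *CG2278* from 34 to 76 for MSL3 in females and from 1 to 3 for MSL3 in males. In a window of 5 kb, female MSL3 coverage was 11.3% at *Tlk* and 36.2% at *CG2278*, and with lists of equal length that at *CG2278* was 6.16%. Without joining over gaps, the MSL3 runs at *CG2278* were 1101 bp in females, against 2409 bp, and 3423 bp in males, against 12343 bp. *CG2278* had more records and a higher percent of MSL3 coverage than *Tlk* under each setting in which these were recomputed, but without joining the MSL3 run of females was 1101 bp at *CG2278* and 1128 bp at *Tlk*. The background shares moved more: the share of X-linked MSL3 peaks with MSL2 ranged from 48.1% to 74.5% in females and from 50.6% to 86.1% in males. The share with MSL1 ranged from 25.0% to 65.0% in females and from 64.3% to 95.5% in males.

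No paired analysis was possible because each list pools its replicates, and for the same reason leaving out a replicate was not run. The fold and −log10 p depend on read depth and on the IgG library, which were not examined here, and the absence of a peak says only that none passed the thresholds of its list.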
